A study of Mus musculus with 10 samples.

Results

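The 881 widest Pax5 peaks of pro-B cells with normal Pax5 are described here. They were chosen by width alone, as the peaks of the Pax5+/+ ChIP-seq list that span at least 1000 bp from start to end, and they are 881 of its 41983 peaks (2.10%). Width is therefore what defined them and is given as a description. ChIP-seq recovers the DNA fragments bound by an antibody against a protein, and a peak is a stretch of genome where such fragments pile up above an input sample.

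The mouse study compared cells with normal Pax5 with cells in which the only functional Pax5 allele carries R31Q, a substitution in the DNA-binding paired domain, opposite a null allele. ChIP-seq was done once per genotype on pro-B cells from the bone marrow of C57BL/6 mice that had been cultured for a short time. The Pax5+/+ library came from cells labelled Rag2(-/-), which cannot rearrange their antigen receptor genes, and the other from cells whose genotype label is Pax5(R31Q/-), although its description writes Rag2(R31Q/-). RNA-seq was done on cells sorted directly from bone marrow, with 2 libraries for each of 4 genotypes: Pax5(+/+), Pax5(+/-) and Pax5(R31Q/-) pro-B cells, and Pax5(fl/fl) Vav-Cre cells. The last are labelled progenitor cells, lost Pax5 through a Cre driven by the Vav promoter, which is active in blood cells, and are called Pax5-/- below. The antibody was a rabbit polyclonal serum against the paired domain, the same domain that holds the substitution. The ChIP-seq cells thus differed from the RNA-seq cells in having been cultured, and the wild-type ones also in Rag2. Ages are not given in the labels.

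Pax5 is the transcription factor that commits lymphoid progenitors to the B cell lineage. It binds DNA through its paired domain, activates genes of B cell receptor signalling and B-lineage transcription, and represses genes of other lineages. At active genes, transcription factors and the polymerase machinery gather at the transcription start site (TSS), and in mammals most such sites lie in CpG islands, stretches rich in G, C and the CG dinucleotide.

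The deposited peak lists hold a start, an end and a score of 0 in every row, so neither peak height nor summit was known, and they do not give the read depth of the ChIP libraries. The study's methods describe thinning the reads to the smallest library where peaks were to be compared, without saying whether these lists were made from thinned reads. The RNA-seq values are TPM, levels corrected for gene length and scaled to a fixed sum per library, and do not show how many reads lie behind a value. Pro-B markers were present in every library, with all 11 of the listed genes above 1 TPM. Their summed level was between 14689 and 18697 TPM in the 6 pro-B libraries, and 8489 and 7759 TPM in Pax5-/-.

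The stretches of genome printed next are examples of the sequence of these peaks. They come from the wild-type peaks at the gene named, from parts free of annotated exons, on the + strand of GRCm38 (mm10) as held by RefSeq. Where such a part held the Pax5 core GCGTGAC on either strand, the stretch was placed around it. Otherwise it was placed as near as possible to the midpoint of the peak. The first 3 lie in peaks at promoters: chr6:51469895-51470194 between Hnrnpa2b1 and Cbx3, chr5:109556701-109557000 at Crlf2 and chr5:123343965-123344264 at Bcl7a. The others lie in wide peaks whose R31Q peak was much narrower or absent: chr16:95427919-95428218 in an intron of Erg, chr8:120746027-120746326 in an intron of Irf8, chr4:58941269-58941568 beside Zkscan16 and chr17:5147479-5147598 in an intron of Arid1b. Capitals mark matches on either strand to the Pax5 core GCGTGAC, to the EBF core CCCNNGGG or to GGGCGG, the box bound by SP proteins. A match is a run of letters, not a measured binding site.

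Hnrnpa2b1 and Cbx3: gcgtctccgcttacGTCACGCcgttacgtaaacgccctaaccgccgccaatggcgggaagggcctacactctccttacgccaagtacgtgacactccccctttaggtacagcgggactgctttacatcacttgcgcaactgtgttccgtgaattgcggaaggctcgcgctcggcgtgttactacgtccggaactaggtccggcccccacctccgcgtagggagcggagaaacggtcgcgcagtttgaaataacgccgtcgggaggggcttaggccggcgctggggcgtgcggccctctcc
Crlf2: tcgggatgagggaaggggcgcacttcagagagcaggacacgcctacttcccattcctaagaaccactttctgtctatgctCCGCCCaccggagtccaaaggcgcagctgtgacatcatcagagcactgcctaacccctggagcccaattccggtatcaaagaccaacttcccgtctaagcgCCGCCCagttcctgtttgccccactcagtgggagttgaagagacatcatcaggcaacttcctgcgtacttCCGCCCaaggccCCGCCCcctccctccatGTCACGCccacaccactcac
Bcl7a: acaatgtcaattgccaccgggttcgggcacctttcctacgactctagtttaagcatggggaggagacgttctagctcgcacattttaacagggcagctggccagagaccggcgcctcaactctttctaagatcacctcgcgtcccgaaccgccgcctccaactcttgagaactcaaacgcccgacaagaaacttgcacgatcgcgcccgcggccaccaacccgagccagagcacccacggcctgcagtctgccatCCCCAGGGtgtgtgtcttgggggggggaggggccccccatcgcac
Erg intron: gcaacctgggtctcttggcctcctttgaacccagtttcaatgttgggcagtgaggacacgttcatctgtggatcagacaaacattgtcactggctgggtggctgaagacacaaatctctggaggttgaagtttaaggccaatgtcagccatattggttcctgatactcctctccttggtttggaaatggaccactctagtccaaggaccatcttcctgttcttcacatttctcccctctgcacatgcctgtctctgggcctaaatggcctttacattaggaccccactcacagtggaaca
Irf8 intron: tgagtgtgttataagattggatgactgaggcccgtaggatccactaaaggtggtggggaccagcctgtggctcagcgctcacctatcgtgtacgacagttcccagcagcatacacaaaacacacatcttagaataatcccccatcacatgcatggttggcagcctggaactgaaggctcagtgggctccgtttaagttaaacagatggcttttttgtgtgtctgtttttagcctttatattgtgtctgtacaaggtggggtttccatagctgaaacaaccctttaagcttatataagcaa
Zkscan16: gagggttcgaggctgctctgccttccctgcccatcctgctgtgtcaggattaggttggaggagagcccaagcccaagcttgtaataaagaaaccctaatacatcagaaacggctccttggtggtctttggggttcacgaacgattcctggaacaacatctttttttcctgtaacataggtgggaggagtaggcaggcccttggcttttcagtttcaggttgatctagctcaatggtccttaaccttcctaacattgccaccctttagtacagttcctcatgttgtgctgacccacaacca
Arid1b intron: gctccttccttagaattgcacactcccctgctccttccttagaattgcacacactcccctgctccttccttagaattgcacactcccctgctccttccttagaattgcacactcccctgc

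The stretch between Hnrnpa2b1 and Cbx3 held 36 CG dinucleotides, that of Bcl7a 22 and that of Crlf2 14. Those of Zkscan16, of the Irf8 intron and of the Erg intron held 4, 5 and 1. The Hnrnpa2b1 and Crlf2 stretches each held 1 Pax5 core on the complementary strand, the Crlf2 stretch also held 4 SP boxes, and the Bcl7a stretch held 1 EBF core. None of the 3 motifs was found in the last 4 stretches, and the letters from Arid1b repeat a short unit.

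The wide peaks had a median width of 1161 bp, with quartiles of 1065 and 1308 bp, against a median of 332 bp over the whole wild-type list. They were not set apart by a gap in width: 32 peaks measured at least 990 and under 1000 bp, and 39 lay in the next 10 bp. The 3 peaks just under the limit, at 999 bp, lay at Cfap58, Ywhag and Tssc4 and were met by R31Q peaks of 911, 1400 and 853 bp. Just over it, at exactly 1000 bp, were 7 peaks. Those nearest to 2900060B14Rik, Gtf2a1, Cdca4 and Ramac were met by R31Q peaks of 939, 1066, 1286 and 1396 bp and that at Brd3 by 1 of 494 bp. The peak nearest to Nr4a3, more than 1 kb from its TSS, was met by 1 of 1067 bp, and that 33285 bp from Eapp by 1 of 1074 bp. At the upper end 100 wide peaks spanned at least 1500 bp and 15 at least 2000 bp.

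The widest peak of all, at chr9:124422460-124425991, spanned 3532 bp over a TSS of the non-coding gene 4930526I15Rik. It was followed by a peak of 2709 bp at chr1:86440651-86443359, which was 14322 bp from the nearest TSS (Tex44), and by the 2643-bp peak at chr6:51468620-51471262 between Hnrnpa2b1, which encodes an RNA-binding protein, and Cbx3, which encodes a heterochromatin protein. Peaks of 2637 bp at Crlf2 (chr5:109556672-109559308), a cytokine receptor subunit, and of 2534 bp at Ywhaz (chr15:36792315-36794848), a 14-3-3 adaptor protein, came next. The others of the 12 widest were an intronic peak of Arid1b (2498 bp), 3 peaks over clustered histone genes of 2332, 2227 and 2138 bp, and peaks at Tnrc18 (2149 bp), Cecr2 (2141 bp) and Csf2ra (2069 bp). Of these 12, the Arid1b peak had no R31Q counterpart, while the R31Q peaks at the others spanned between 1500 and 3495 bp.

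Most wide peaks lay at gene starts. A curated RefSeq TSS was within 1 kb of 766 of them (86.9%), and inside the peak itself for 733 (83.2%), whereas 20.5% of the narrower wild-type peaks had a TSS within 1 kb. The share rose through the width classes, from 8.21% of peaks under 300 bp to 44.1% at 400 to under 600 bp, 67.1% at 600 to under 800 bp and 78.0% at 800 to under 1000 bp, as the plot by width class shows. At their midpoints, 365 wide peaks (41.4%) were intergenic, 253 (28.7%) in an untranslated or non-coding exon, 206 (23.4%) in an intron and 57 (6.47%) in a coding exon. Of the 115 wide peaks with no curated RefSeq start, 42 (36.5%) had a start within 1 kb in the broader GENCODE vM21 annotation, used after seeing the data, and 73 had none in either.

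**Figure D1:**
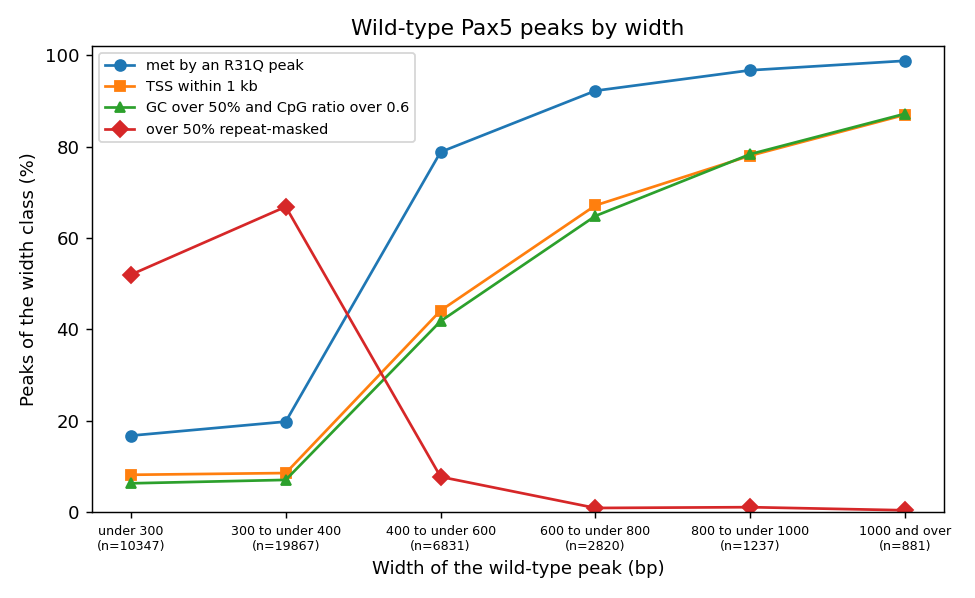
Wild-type Pax5 peaks in 6 width classes (x axis, bp, with the number of peaks) and the percentage of each class (y axis) that was met by an R31Q peak, had a TSS within 1 kb, was CpG-rich or was more than 50% repeat-masked. The first 3 shares rose to 98.8%, 86.9% and 87.2% in the widest class, while the repeat-masked share fell from 66.8% at 300 to under 400 bp to 0.45%.

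At promoters the midpoints of wide peaks lay farther from the TSS than those of narrower ones. The midpoint lay within 200 bp of the nearest TSS for 402 of 766 wide promoter peaks (52.5%) and for 75.9% of the 8430 narrower promoter peaks. The peaks were grouped by width, and the part of width itself in this difference was not tested. The starts of 2 or more genes lay within 1 kb of 190 wide promoter peaks (24.8%) and of 16.4% of narrower ones, for which the stretch searched is shorter, and in 181 of the 190 the genes ran on both strands, as Hnrnpa2b1 and Cbx3 do.

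**Figure D2:**
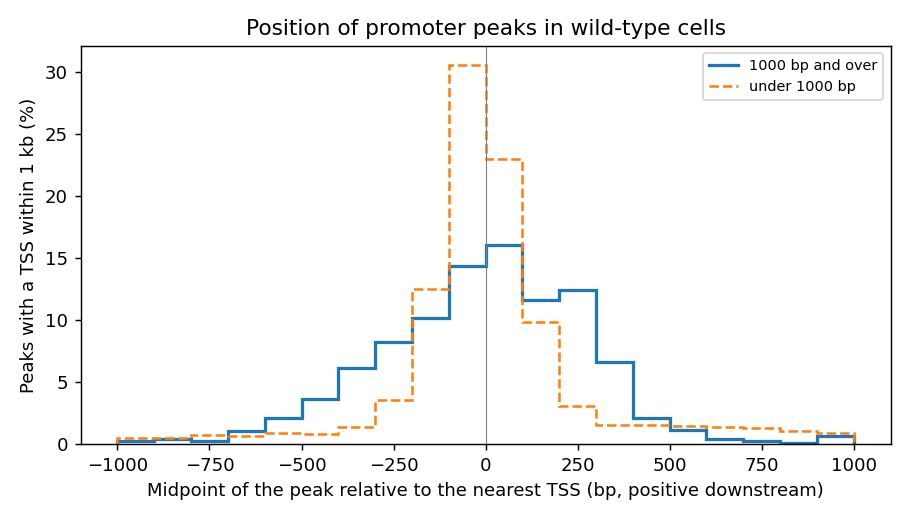
Midpoints of promoter peaks relative to the nearest TSS (x axis, bp, positive downstream) for 766 wide and 8430 narrower wild-type peaks, in bins of 100 bp (y axis, percentage of peaks). Narrower peaks were concentrated at the TSS, and wide peaks formed a broad hump on both sides of it.

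Over the genome, chromosome 11 held the most wide peaks (71), followed by chromosomes 7 (62) and 17 (59). The X chromosome held 4 (0.454%) although 5.38% of all wild-type peaks lay there. Wide peaks were mostly far apart, with a median gap of 1215 kb between neighbours, and in 73 of 860 neighbouring pairs the gap was under 50 kb. Among the genes with more than 1 wide peak at their starts were the transcriptional regulators Yy1, Sin3a, Brd2, Cic and Tgif1.

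In base composition the wide peaks were the extreme of a gradient. Their median GC content was 64.3% (quartiles 59.4% and 68.7%) against 42.5% over all wild-type peaks, and the median ratio of observed to expected CG dinucleotides was 0.84 against 0.25. With GC above 50% and a CG ratio above 0.6 taken as CpG-rich, 768 wide peaks (87.2%) were CpG-rich against 18.8% of the narrower peaks. The narrower promoter peaks were close to them, with a median GC content of 63.5% and 81.3% CpG-rich, and wide promoter peaks reached 65.4% and 95.7%. The 115 wide peaks away from curated starts had a median GC content of 52.9%, and 35 of them (30.4%) were CpG-rich. Repeats covered more than 50% of 4 wide peaks (0.45%), whereas they covered more than 50% of 46.8% of the narrower peaks. Fragments of high GC content can be over- or under-represented in a ChIP-seq library, and the part of GC content in peak width was not tested.

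The Pax5 core GCGTGAC was found in 182 wide peaks (20.7%). Because a longer peak gives more room for a match, the 300 bp at the midpoint were compared: the core was there in 48 wide peaks (5.45%), in 6.91% of peaks of 600 to under 800 bp, in 2.92% of those under 300 bp and in 2.09% of 32851 RefSeq promoters of 300 bases. By the same measure, wide peaks were thus above all promoters and no richer in the core than the peaks of middle width. Motifs rich in G and C were common. The SP box GGGCGG was found in the central 300 bp of 588 wide peaks (66.7%) against 35.7% of all promoters, and the EBF core CCCNNGGG, a palindrome bound by Ebf1, the B-lineage factor that works with Pax5, in 211 (24.0%) against 13.7%. Narrower promoter peaks were close to the wide peaks in both, with 68.1% and 21.7%. The ETS motif GGAAGTG (10.6% of wide peaks, 11% of promoters) and the E-box CAGCTG (15.1% and 16.3%) were near the promoter share, and the Runx motif TGTGGT was below it (9.65% and 16.8%). In narrower promoter peaks these 3 motifs were found in 15.1%, 17.0% and 12.6%. All motifs were searched on both strands. Wide peaks away from starts differed from those at promoters in these shares: the Runx motif was in 21.7% of them and the E-box in 26.1%, against 7.83% and 13.4%. Narrower peaks away from starts held the 2 motifs in 14.6% and 11.9%, and those of them met by an R31Q peak in 35.3% and 30.9%.

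Genes for small RNAs stood close to a larger share of wide than of narrower peaks. A small nuclear, nucleolar, transfer or related RNA gene was annotated within 1 kb of 35 wide peaks (3.97%) and of 0.672% of narrower ones. Among the wide peaks away from curated starts the share was 15.7% (18 of 115), against 0.563% of narrower peaks away from starts. Of the 35, 8 peaks lay at genes of the U1 spliceosomal RNA, 4 at U6, 3 at U2 and 11 at transfer RNA genes. Of the U1 peaks, 6 stood in 1 cluster on chromosome 12 near Eapp, between chr12:54695397-54697303 and chr12:54737622-54738799, and 4 further peaks stood near Tex14 on chromosome 11, 3 of them at copies of the U3 gene (Rnu3b1, Rnu3b3 and Rnu3b4). All 35 were met by an R31Q peak. Near-identical copies of such genes share reads, so how the reads were divided between the copies is uncertain.

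The matching peaks in Pax5R31Q/- cells were present almost throughout. An R31Q peak shared at least 1 bp with 870 of the 881 wide peaks (98.8%), and R31Q peaks covered at least 50% of 862 of them (97.8%). The same share over all 41983 wild-type peaks was 37.5%, although the R31Q list held only 18821 peaks, and it climbed with width from 16.8% under 300 bp to 78.8% at 400 to under 600 bp and 96.7% at 800 to under 1000 bp. Most wide peaks met 1 R31Q peak (839), while 30 met 2 and 1 met 3. All 766 wide promoter peaks were met, against 91.5% of narrower promoter peaks. Away from curated starts, 104 of 115 wide peaks (90.4%) were met against 21.9% of narrower ones. Repeats covered more than 50% of 3.48% of these wide peaks, of 58.8% of the narrower ones and of 5.43% of the narrower ones that were met. The part of repeats in these shares was not tested. There was 1 ChIP-seq library per genotype, so none of these shares has a replicate check.

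The counterparts were wide as well. Of the 870 wide peaks that were met, 792 (91.0%) met an R31Q peak of at least 1000 bp. The widest R31Q peak was wider than the wild-type peak in 657 of the 870 (75.5%) and narrower in 212, and the median ratio of R31Q to wild-type width was 1.09 (quartiles 1.003 and 1.24). R31Q peaks covered 461 wide peaks (52.3%) from end to end, and the median share covered was 100%. The ratio has the width that chose the peaks as its denominator, and its median fell through the width classes, from 1.47 under 300 bp to 1.12 at 800 to under 1000 bp, with 1.22 over all wild-type peaks that were met. R31Q peaks were wider in general, with a median of 559 bp over the whole list, and 2584 of them (13.7%) reached 1000 bp. Of these 2584, 790 (30.6%) had a wide wild-type partner, and the wild-type partners had a median width of 857 bp. When as many R31Q peaks were taken as there were wide wild-type peaks, beginning with the widest, which gave those of at least 1333 bp, 401 (45.5%) had a wide wild-type partner. The lists thus differed in width as a whole, and the part of that difference in these ratios was not tested.

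**Figure D3:**
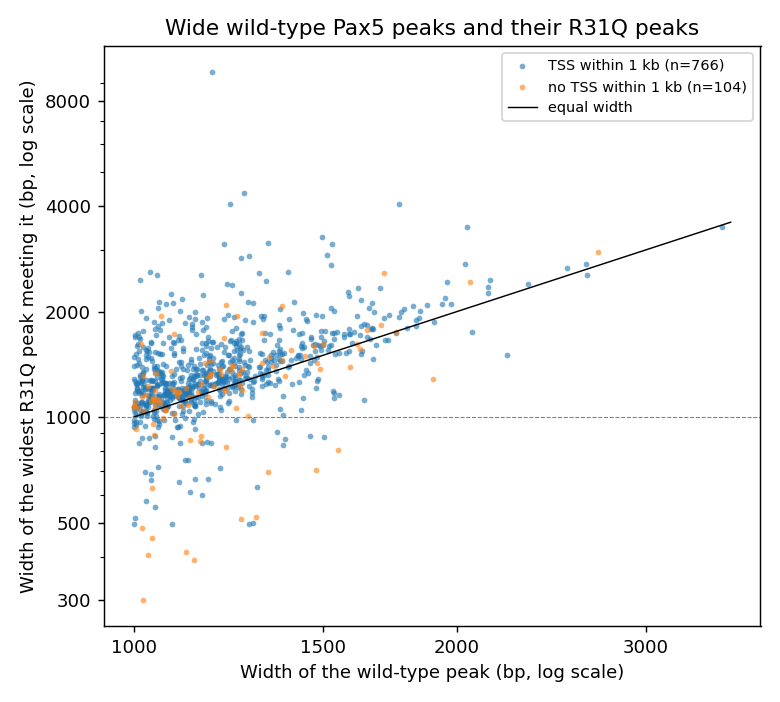
Width of each wide wild-type peak (x axis, bp, log scale) and of the widest R31Q peak meeting it (y axis, bp, log scale), with promoter peaks in blue and the others in orange. Most points lie above the line of equal width, with a median ratio of 1.09, and the points far below it are mostly orange.

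In 16 wide peaks, all of them within 1 kb of a TSS, the R31Q peak was more than 2 times as wide. In some cases 1 long R31Q peak took in a pair of wide peaks: both at Tgif1, a homeobox repressor, lay in 1 of 4062 bp, both at Cxxc5 (1530 and 1214 bp) in 1 of 3125 bp, and those at Zbtb1 and Zbtb25 (1155 and 1052 bp) in 1 of 2548 bp. Single peaks of this kind were at Gse1 and 1700016A09Rik (1267 bp in wild-type and 4355 bp in R31Q cells), Cux1 (1497 and 3274 bp), Nr3c1, the glucocorticoid receptor (1334 and 3131 bp), Midn (1280 and 2880 bp), Zbtb7a (1258 and 2838 bp), Brd2, a bromodomain protein (1036 and 2602 bp), Klf16 and Gm26710 (1014 and 2461 bp), Irf2bp2 (1083 and 2249 bp) and Hsp90ab1, a heat shock protein (1056 and 2125 bp). The largest ratio was at Erdr1 on the Y chromosome, where a peak of 1182 bp met the widest R31Q peak of all, 9640 bp. Erdr1 has copies on X and Y, so the division of its reads is uncertain.

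At the other end, the widest R31Q peak was less than 0.5 times as wide as the wild-type peak in 14 cases. In 8 of them 2 R31Q peaks met the wild-type peak and together covered between 61.5% and 86.4% of it, and in the other 6 a single R31Q peak covered between 29.5% and 49.4%. Of the 14, 5 were at promoters, and their median GC content was 46.9%, against 64.5% in the 856 wide peaks whose widest R31Q peak was at least 0.5 times as wide. A pair of them was at Erg, an ETS-family factor of blood stem cells and early B cells: the peak over a TSS at chr16:95458636-95459916 spanned 1281 bp, and 2 R31Q peaks, the wider of 497 bp, covered 61.5% of it. The intronic peak at chr16:95427419-95428719 spanned 1301 bp, and 2 R31Q peaks, the wider of 518 bp, covered 78.2% of it. The others lay near Mon2, Gm15471, Pogz, Olfr266, Gm51286, Gm26685, Mterf2, Kctd12, Gm8979, Fam69b, Olfr1423 and Brd3. Both Erg peaks were thus covered in part by a pair of narrower R31Q peaks.

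Expression of Erg was 378 and 538 TPM in the Pax5+/+ libraries, 402 and 361 in Pax5+/-, 262 and 279 in Pax5R31Q/- and 179 and 187 in Pax5-/-. The R31Q libraries lay below every Pax5+/+ and Pax5+/- library, with the Pax5-/- libraries lower still. The difference did not pass the test in R31Q (log2 fold change -0.74 ± 0.17 (SE), adjusted p = 0.055) and passed in Pax5-/- (-1.29 ± 0.17, adjusted p = 0.000905).

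There were 11 wide peaks without an R31Q peak. Of all 115 wide peaks away from curated starts, 17 (14.8%) held the Pax5 core and 35 (30.4%) were CpG-rich. None of the 11 was at a curated TSS, none held the core, and none was CpG-rich, with a median GC content of 45.2%. Among them were peaks in or near Arid1b (2498 bp), Tmem181b-ps (1262 bp), Smim19 (1145 bp, in an intron of Slc20a2), Zkscan16 (1101 bp), Hjurp (1100 bp, in an intron of Mroh2a), 5031425E22Rik (1080 bp, in an intron of Lhfpl3), Apaf1 (1073 bp), Irf8 (1048 bp), Gm29998 (1031 bp) and Prex1 (1020 bp). The Arid1b peak at chr17:5146290-5148787 was repeat-masked over 100% of its length, held no CG dinucleotide, lay 151216 bp from the nearest TSS and matched itself at 69.0% of bases when shifted by 60 bp. A tandem repeat of this kind can collect reads from several copies, which was not tested here.

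The peak beside Zkscan16, a zinc finger gene, lay at chr4:58940869-58941969, 1659 bp from its TSS. Zkscan16 was at 11.1 and 12.1 TPM in Pax5+/+, 6.21 and 7.27 in Pax5+/-, 6.22 and 3.97 in Pax5R31Q/- and 0.0548 and 0.0681 in Pax5-/-. All 6 other libraries lay below those of Pax5+/+, and the Pax5-/- libraries were near 0. It fell in R31Q (log2 fold change -1.07 ± 0.21 (SE), adjusted p = 0.0346) and in Pax5-/- (-3.57 ± 0.21, adjusted p = 2.78e-05).

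The peak in an intron of Irf8, a factor of B cell and myeloid development, lay at chr8:120745653-120746700, 7014 bp from the nearest start. A further wide peak at chr8:120724801-120726274, 10084 bp upstream of the gene, spanned 1474 bp and was met by an R31Q peak of 1596 bp. Irf8 was at 199 and 189 TPM in Pax5+/+, 231 and 197 in Pax5+/-, 118 and 106 in Pax5R31Q/- and 276 and 506 in Pax5-/-. The R31Q libraries were the lowest and the Pax5-/- libraries the highest. The R31Q difference missed the threshold (-0.79 ± 0.25, adjusted p = 0.15), and the rise in Pax5-/- passed it (0.94 ± 0.25, adjusted p = 0.0237).

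Genes with a TSS within 1 kb of a wide peak were expressed, and at higher levels than genes at narrower peaks. There were 928 such genes, of which 894 (96.3%) reached 1 TPM in at least 1 library and were tested. In Pax5+/+ cells 832 of the 928 (89.7%) had a mean above 5 TPM, against 80.9% of 8466 genes with only a narrower peak and 14.4% of 15364 genes with none. Their median level was 47.4 TPM (quartiles 18.3 and 107 TPM), against 29.2 TPM at narrower peaks and 0.0151 TPM at no peak. The median rose with the width of the widest peak at the gene, from 19.1 TPM under 300 bp through 30.5 TPM at 400 to under 600 bp to 39.4 TPM at 800 to under 1000 bp. In the other genotypes the median at wide peaks was 49.7 TPM (Pax5+/-), 49.4 TPM (Pax5R31Q/-) and 39.0 TPM (Pax5-/-).

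Expression at the widest peaks varied. Hnrnpa2b1 was at 1093 and 732 TPM in Pax5+/+ and 1227 and 1299 in Pax5R31Q/-, and Ywhaz at 309 and 273 and 325 and 297. Crlf2 was at 99.98 and 157 TPM in Pax5+/+, 85.2 and 88.9 in Pax5R31Q/- and 73.1 and 84.1 in Pax5-/-, and Csf2ra, another cytokine receptor chain, at 59.6 and 104, 52.0 and 56.4 and 37.1 and 43.7. Neither receptor gene passed the test in R31Q (adjusted p = 0.242 and 0.288), and both passed in Pax5-/- (log2 fold change -0.67 and -0.95, adjusted p = 0.0418 and 0.0189). The histone genes Hist2h3c1 and Hist2h3c2 under 2 of the widest peaks were listed at 0 TPM in all 8 libraries. The values rest on uniquely mapping reads of RNA selected by poly(A), and the part of either in these zeros was not tested.

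Between Pax5R31Q/- and Pax5+/+ cells, few genes with a TSS within 1 kb of a wide peak differed. In a limma fit over all 13436 genes, 17 of the 894 (1.90%) were lower and 6 (0.671%) were higher at an adjusted p under 0.05, when 2.55% of all genes tested were lower and 1.62% higher. Both shares were below that background. The median log2 fold change was 0.05 at wide peaks and 0.04 over all genes. For the study's own thresholds, a change above 3-fold and more than 5 TPM, the fold was taken on TPM + 1. On that scale 1 gene was lower (Bcl7a) and none higher (0.558% and 0.275% of all genes tested). Thrb and Pde8a (log2 fold changes 1.51 and 1.45) fell short of 3-fold on it, though not by the ratio of their mean TPM. In all, 147 of the 894 genes (16.4%) had an unadjusted p under 0.05, against 18.8% of all genes tested. The counts rest on all 4 libraries: without Pax5+/+ library 1 or 2, 27 and 8 genes were lower, and without Pax5R31Q/- library 1 or 2, 2 and 3. Of higher genes there were 2 without Pax5+/+ library 2 and 1 without either Pax5R31Q/- library. Summed T and NK cell markers, 3 of 8 of which were above 1 TPM in both groups, were 107 and 127 TPM in Pax5+/+ and 166 and 163 TPM in Pax5R31Q/-, with Lck at 60.4 and 63.4 against 94.4 and 98.7 TPM, Tcf7 at 32.8 and 47.8 against 54.8 and 55.1 TPM and Klrb1c at 13.8 and 15.7 against 15.4 and 8.73 TPM. Summed myeloid markers were 166 and 127 against 219 and 179.8 TPM and summed pro-B markers 15944 and 18697 against 14689 and 15124 TPM. The part of these differences in the R31Q counts was not tested. In whole-cell RNA, fewer cells of a type and less RNA per cell cannot be told apart.

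**Figure D4:**
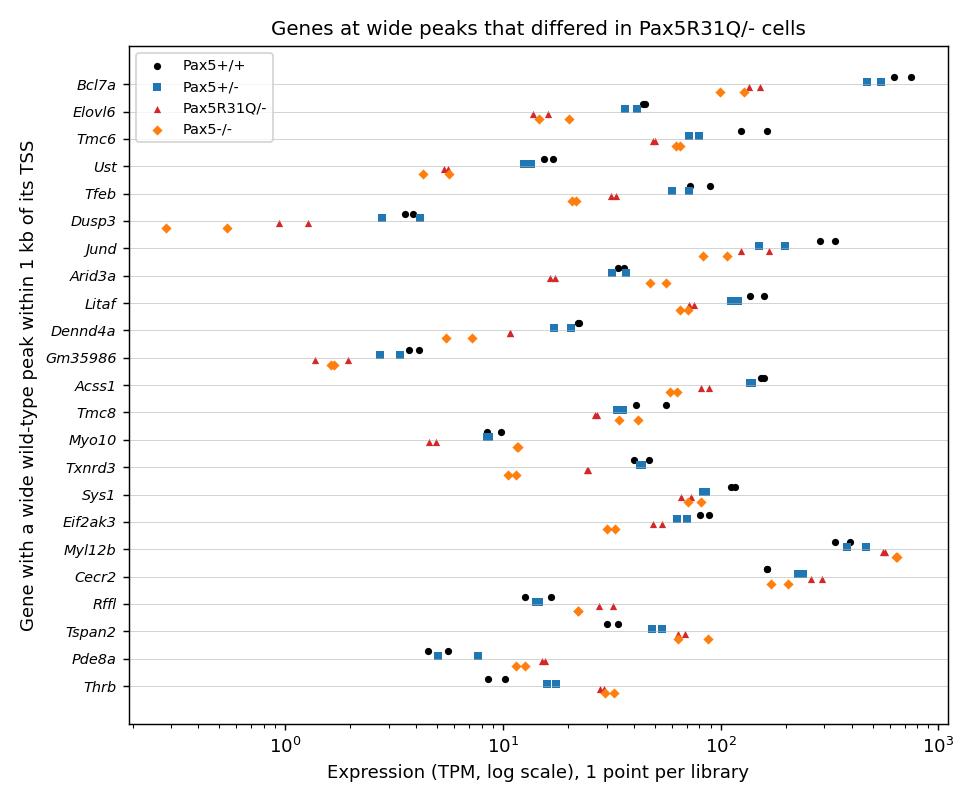
Expression (x axis, TPM, log scale) of the 23 genes with a TSS within 1 kb of a wide peak that differed between Pax5R31Q/- and Pax5+/+ cells, 1 point per library, 2 libraries per genotype. The 17 genes at the top were lower and the 6 at the bottom higher in Pax5R31Q/-, and the Pax5-/- points (diamonds) lie by their mean on the side of Pax5R31Q/- in all of them except Arid3a and Myo10. The genes were chosen by their difference from the same Pax5+/+ libraries, which favours a shared side.

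Bcl7a, which encodes a subunit of the BAF chromatin-remodelling complex, had the largest fall. It was at 627 and 745 TPM in Pax5+/+, 546 and 469 in Pax5+/-, 152 and 135 in Pax5R31Q/- and 99.9 and 128 in Pax5-/-. The R31Q libraries were far below both Pax5+/- libraries and near those of Pax5-/- (log2 fold change -2.24 ± 0.16 (SE), adjusted p = 0.000895). Its wide peak at chr5:123343767-123344933, from which a stretch is printed above, covered 1167 bp in wild-type and 1810 bp in R31Q cells, so the peak was wider where the gene was lower.

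Several other lowered genes encode enzymes or membrane proteins. Elovl6, a fatty acid elongase, was at 45.2 and 44.1 TPM in Pax5+/+ and 13.8 and 16.1 in Pax5R31Q/- (-1.52 ± 0.17, adjusted p = 0.00433), and the non-coding gene Gm35986 at the same peak fell with it (-0.89). Tmc6 and Tmc8 share a start and a peak and encode membrane proteins that act together. Tmc6 was at 124 and 164 TPM in Pax5+/+, 79.3 and 71.7 in Pax5+/- and 49.0 and 49.8 in Pax5R31Q/- (-1.51 ± 0.15, adjusted p = 0.00238). Tmc8 changed by -0.82. Ust, a sulfotransferase of glycosaminoglycans (-1.40), Acss1, a mitochondrial acetyl-CoA synthetase (-0.87), and Txnrd3, a thioredoxin reductase (-0.80), also fell.

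Transcription factors were also among the lowered genes. Tfeb, the regulator of lysosomal genes, was at 72.4 and 89.6 TPM in Pax5+/+ and 33.2 and 31.4 in Pax5R31Q/- (-1.29 ± 0.15, adjusted p = 0.00433), with a peak of 1798 bp in both lists. Jund, an AP-1 subunit, was at 287 and 334 TPM in Pax5+/+, 198 and 151 in Pax5+/- and 167 and 124 in Pax5R31Q/-, so that the Pax5+/- and Pax5R31Q/- libraries overlapped (-1.10 ± 0.21, adjusted p = 0.0281). Arid3a, which binds AT-rich DNA in B cells, was at 36.0 and 33.7 TPM in Pax5+/+, 17.4 and 16.5 in Pax5R31Q/- and 47.4 and 56.5 in Pax5-/-. It fell in R31Q (-0.997 ± 0.14, adjusted p = 0.00956) and rose in Pax5-/- (0.56 ± 0.14, adjusted p = 0.0178). The remaining falls, from -1.16 to -0.71, were in Dusp3, a phosphatase, Litaf, Dennd4a, Myo10, Sys1 and Eif2ak3, the PERK kinase of the unfolded protein response.

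Among the 6 genes that rose, Thrb, the thyroid hormone receptor beta, was at 8.58 and 10.3 TPM in Pax5+/+, 17.7 and 16.1 in Pax5+/-, 29.2 and 27.9 in Pax5R31Q/- and 29.4 and 32.4 in Pax5-/-. Pax5+/- stood between the other groups without overlap (log2 fold change 1.51 ± 0.14 (SE), adjusted p = 0.00233). Pde8a, a cAMP phosphodiesterase, went from 4.54 and 5.61 TPM to 15.2 and 15.7 (1.45 ± 0.21, adjusted p = 0.0105). Tspan2, a tetraspanin (1.03), Rffl, a ubiquitin ligase (0.99), Cecr2, a chromatin remodeller at 1 of the 12 widest peaks (0.74), and Myl12b, a myosin light chain (0.63), followed.

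Every wide peak at these 23 genes was met by an R31Q peak, as were all 766 wide promoter peaks. Among the lowered genes, some had a narrower R31Q peak and others a wider one. The peak at Litaf spanned 1003 bp and met 2 R31Q peaks, the wider of 516 bp, which together covered 93.6% of it. Dusp3 had a peak of 1124 bp in wild-type and 753 bp in R31Q cells and Elovl6 of 1292 and 982 bp, whereas that of Arid3a went from 1247 to 1631 bp and that of Jund from 1976 to 2102 bp. Peak width and expression thus did not go together in 1 direction in these examples.

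Between Pax5+/- and Pax5+/+ cells, limma called 0 of the 894 genes lower and 0 higher, with 0.0223% and 0% of all genes tested called. At an unadjusted p under 0.05 there were 26 of the 894 (2.91%), against 6.06% of all genes tested. For Bcl7a the difference was -0.43 ± 0.16, adjusted p = 0.704, and for Thrb it was 0.78 ± 0.14, adjusted p = 0.174. The comparisons with Pax5R31Q/-, Pax5+/- and Pax5-/- all use the same 2 Pax5+/+ libraries.

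In Pax5-/- cells, expression at wide peaks was shifted downwards. Of the 894 genes, 282 (31.5%) were lower and 62 (6.94%) higher than in Pax5+/+, when 19.7% and 16.2% of all genes tested were called. Genes with only a narrower peak had 19.6% lower and 13.5% higher, and genes with no peak 16.7% and 22.7%. The median log2 fold change was -0.31 at wide peaks (quartiles -0.63 and 0.05), -0.14 at narrower peaks, 0.02 at no peak and -0.11 over all genes. After median-ratio scaling of the libraries, which brought the median of all genes to -0.02, the median at wide peaks was -0.22, with 271 genes lower and 87 higher. Over all 13436 genes tested, 2492 were then lower and 2642 higher, against 2647 and 2182 without this scaling. By the study's thresholds, with the fold taken on TPM + 1, 36 (4.03%) were lower and 6 (0.671%) higher. Over all genes tested these shares were 3.44% and 2.86%, and among genes with only a narrower peak 3.47% and 1.58%.

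**Figure D5:**
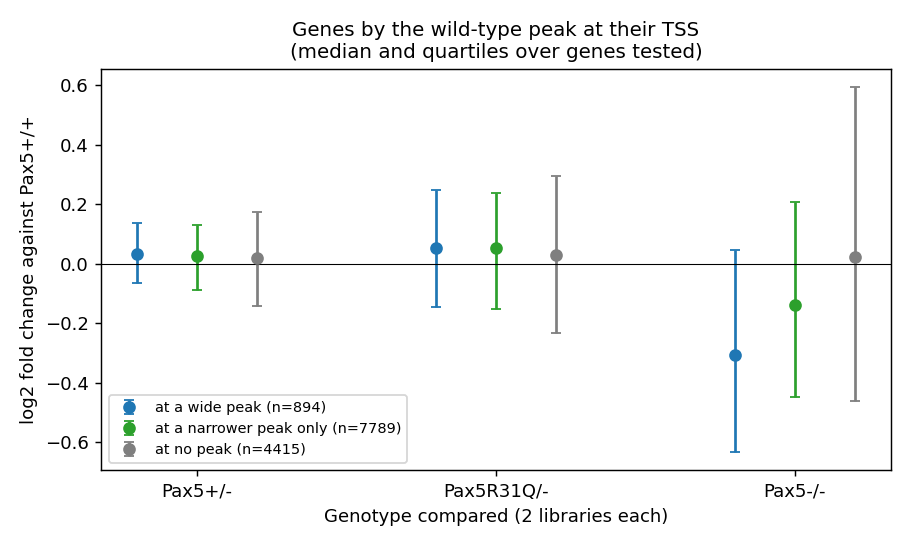
Median and quartiles (points and bars) of the log2 fold change of TPM + 1 against Pax5+/+ (y axis) in 3 genotypes (x axis), over the 894 genes tested at a wide peak, the 7789 at a narrower peak only and the 4415 at none. The sets overlap closely in Pax5+/- and Pax5R31Q/-, and in Pax5-/- the median is -0.31 at wide peaks, -0.14 at narrower peaks and 0.02 at none.

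The number of lower genes was 179 without Pax5+/+ library 2, 176 without Pax5-/- library 1 and 444 without Pax5-/- library 2, and 135 when only these 2 genotypes were fitted, with 35 higher. Marker sums differed as well. Summed pro-B markers were 15944 and 18697 TPM in Pax5+/+ and 8489 and 7759 TPM in Pax5-/-, and summed T and NK cell markers 107 and 127 against 381 and 370 TPM, with 3 of 8 above 1 TPM in both groups. Of these 3, Lck was at 60.4 and 63.4 against 273 and 271 TPM, Tcf7 at 32.8 and 47.8 against 101 and 92.1 TPM, and the NK marker Klrb1c at 13.8 and 15.7 against 6.17 and 6.35 TPM, while Cd3e, Cd3d and Cd3g were below 1 TPM in every library. Myeloid markers were 166 and 127 against 492 and 99.0 TPM, so the Pax5-/- libraries differed from each other, and erythroid markers were between 5.08 and 30.8 TPM, with Hbb-bs at 0. The part of these differences in the counts was not tested.

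The largest falls in Pax5-/- were in Hist1h2ak, Fbxl12, C1galt1, Hist1h2an, Rrm2b, Cdkn2d, Bcl7a and Smarca4. Fbxl12, a ubiquitin ligase subunit, was at 180.3 and 247 TPM in Pax5+/+ and 25.4 and 29.9 in Pax5-/- (log2 fold change -2.89 ± 0.17 (SE), adjusted p = 2.59e-05). Cdkn2d, an inhibitor of cyclin-dependent kinases, went from 254 and 197 to 35.2 and 35.8 TPM (-2.62 ± 0.13, adjusted p = 1.6e-05), and Rrm2b, a ribonucleotide reductase subunit, from 39.6 and 34.0 to 4.13 and 6.19 TPM (-2.63 ± 0.21, adjusted p = 9.18e-05). In Pax5R31Q/- cells these genes were at intermediate levels, 133 and 129, 151 and 141 and 27.8 and 21.2 TPM, none of which passed the test. C1galt1, which adds galactose to growing O-glycans, was at 122 and 125 TPM in Pax5+/+, 134 and 124 in Pax5R31Q/- and 12.2 and 27.1 in Pax5-/- (-2.70 ± 0.30, adjusted p = 0.000458).

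The largest rises in Pax5-/- were in H2-DMa, which loads peptides onto MHC class II and shares its wide peak with Brd2, from 19.4 and 26.2 to 112 and 90.7 TPM (log2 fold change 2.11 ± 0.17 (SE), adjusted p = 0.000114), and in Agpat2, an enzyme of phospholipid synthesis, from 15.0 and 21.4 to 81.9 and 67.7 TPM (1.99 ± 0.19, adjusted p = 0.000215). H2afy, the histone variant macroH2A, was the most abundant of them, at 1277 and 1238 TPM in Pax5+/+, 1658 and 1701 in Pax5R31Q/- and 4319 and 4096 in Pax5-/- (1.74 ± 0.11, adjusted p = 3.77e-05). Ppm1f, a phosphatase (1.82), Tmem181a (1.64), Thrb (1.61), Hlcs, which attaches biotin to enzymes (1.53), and D16Ertd472e (1.502) also rose. For all 8, the wide peak was met by an R31Q peak of more than 1000 bp. Of all wide peaks that were met, 91.0% had an R31Q peak of at least 1000 bp.

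Of 28 chromatin regulators, 7 (25%) had a wide peak at the TSS, against 928 of 24758 genes (3.75%) and 894 of 13098 genes tested (6.83%). Among them were Smarca4 and Bcl7a of the BAF complex, Bcl7c, Ep300, Kmt2a and Tet3. In R31Q 1 of the 7 was lower (Bcl7a), against 2.55% of all genes tested, and in Pax5-/- 3 were (Bcl7a, Smarca4 and Kmt2a), against 19.7% of all genes tested and 31.5% of those at wide peaks. Smarca4, the ATPase of the complex, was at 1707 and 2005 TPM in Pax5+/+, 1854 and 1629.8 in Pax5+/-, 1634 and 1413 in Pax5R31Q/- and 365 and 329.8 in Pax5-/-. The 6 pro-B libraries lay together and the Pax5-/- libraries far below (log2 fold change -2.41 ± 0.14 (SE), adjusted p = 2.72e-05), while in R31Q the difference was -0.28 ± 0.14, adjusted p = 0.331.

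Of 30 B-lineage transcription factors, 6 (20%) had a wide peak at the TSS: Tcf3, Pou2f1, Erg, Runx1, Klf3 and Bcl6. None passed the test in R31Q. In Pax5-/- 4 were lower (Tcf3, Pou2f1, Erg and Bcl6) and 1 higher (Klf3), when 31.5% and 6.94% of genes at wide peaks and 19.7% and 16.2% of all genes tested were called. Of the whole list of 30, 5 were lower and 0 higher in R31Q, when 2.55% and 1.62% of all genes tested were called. In Pax5-/- 18 of the 30 were lower and 6 higher. Tcf3, which encodes the E2A proteins at the start of the B cell programme, was at 1107 and 1462 TPM in Pax5+/+, 1125 and 929.9 in Pax5+/-, 869 and 794 in Pax5R31Q/- and 265 and 269 in Pax5-/-. The R31Q libraries were below those of Pax5+/+ and Pax5+/- without passing the test (-0.61 ± 0.16, adjusted p = 0.0884), and the fall in Pax5-/- was large (-2.25 ± 0.16, adjusted p = 6.33e-05). Klf3, a repressor in B cells, was at 42.3 and 53.7 TPM in Pax5+/+, 72.7 and 63.0 in Pax5R31Q/- and 86.6 and 87.3 in Pax5-/- (Pax5-/-, 0.85 ± 0.15, adjusted p = 0.00354), and its peak spanned 1026 bp in wild-type and 1914 bp in R31Q cells.

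Wide peaks at the TSS of genes of receptor signalling were about as frequent as over all genes tested. Of 27 genes of pre-B and B cell receptor signalling, 2 (7.41%) had one, against 3.75% of all genes and 6.83% of genes tested. They were Syk, a kinase of the receptor, and Cd37, a tetraspanin. Syk was at 573 and 468 TPM in Pax5+/+, 571 and 436 in Pax5R31Q/- and 334 and 336 in Pax5-/-, and was lower in Pax5-/- (-0.63 ± 0.16, adjusted p = 0.0199). The widest wild-type peak at the start of Cd79a spanned 580 bp, of Cd79b 250 bp, of Ebf1 586 bp and of Pax5 itself 857 bp, and the corresponding R31Q peaks spanned 699, 483, 689 and 1264 bp. All 4 of these wild-type peaks lay below the limit of 1000 bp. Pax5 was at 418 and 444 TPM in Pax5+/+, 272 and 287 in Pax5+/-, 306 and 293 in Pax5R31Q/- and 1242 and 1409 in Pax5-/-. It fell in R31Q (-0.52 ± 0.11, adjusted p = 0.0434). Because a whole-gene value says nothing of the exons it came from, the level in Pax5-/- does not check the deletion.

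Away from curated RefSeq starts, the wide peaks had 88 nearest genes that had no wide peak at a TSS, of which 67 could be tested, a list drawn up after the values were seen. In Pax5R31Q/- 5 of the 67 (7.46%) were lower and 2 (2.99%) higher, when 2.55% and 1.62% of all genes tested were called. Among 5120 tested genes that were nearest only to narrower peaks away from starts, 4.14% were lower and 2.66% higher. The lower count was 3 and 2 without Pax5+/+ library 1 or 2 and 1 and 0 without Pax5R31Q/- library 1 or 2, and the higher count was 2 without Pax5+/+ library 1 and 1 without each of the others. In Pax5-/- 23 (34.3%) were lower and 9 (13.4%) higher, against 19.7% and 16.2% of all genes tested. Of the 5120 genes nearest only to narrower peaks away from starts, 23.3% were lower and 19.5% higher. The nearest gene is named by distance alone.

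The largest of the R31Q differences was in Rgs10, a regulator of G-protein signalling whose intronic peak spanned 1253 bp in wild-type and 1323 bp in R31Q cells. Rgs10 was at 29.9 and 26.1 TPM in Pax5+/+, 69.6 and 55.1 in Pax5+/-, 171 and 176 in Pax5R31Q/- and 56.3 and 48.9 in Pax5-/- (log2 fold change 2.59 ± 0.15 (SE), adjusted p = 0.000313). Bcat1, an aminotransferase of branched-chain amino acids 14015 bp from a peak of 1022 bp, was at 25.4 and 24.2 TPM in Pax5+/+, 15.9 and 17.6 in Pax5+/-, 8.35 and 7.09 in Pax5R31Q/- and 0.591 and 0.769 in Pax5-/- (-1.57 ± 0.16, adjusted p = 0.00274). Neither gene had a Pax5R31Q/- library within the range of Pax5+/+. Pax7, a paired-box factor (-0.93), Spred2, an inhibitor of Ras signalling (-0.85), E2f2, a cell-cycle factor (-0.58), and Zkscan16, described above, also fell, and Adgrl2 rose.

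Lef1 and Adgrl2 were picked from the same list after their values were seen. The peak at chr3:131106535-131107753 lay 2544 bp from the TSS of Lef1, a factor of early lymphoid cells, and spanned 1219 bp in wild-type and 2085 bp in R31Q cells. Lef1 was at 537 and 669 TPM in Pax5+/+, 383 and 414 in Pax5R31Q/- and 7.41 and 18.2 in Pax5-/- (log2 fold change -5.56 ± 0.36 (SE), adjusted p = 3.99e-05). Adgrl2, an adhesion receptor, had its nearest curated RefSeq TSS 34318 bp from a peak of 1710 bp, while GENCODE has a protein-coding start within 1 kb of that peak. Adgrl2 was at 21.6 and 23.2 TPM in Pax5+/+, 44.0 and 40.8 in Pax5R31Q/- and 0.642 and 0.971 in Pax5-/-. It thus rose in R31Q (0.89 ± 0.15, adjusted p = 0.0191) and fell in Pax5-/- (-3.70 ± 0.15, adjusted p = 6.66e-06).

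Of the 6 gene lists examined, histone genes had the largest share under wide peaks. Of 96 genes with histone symbols, which encode the core and linker histones and their variants, 35 (36.5%) had a TSS within 1 kb of a wide peak, and 28 of the 35 could be tested. Most lie in clusters where 1 peak reaches several genes, so they are not independent. The peak at chr13:21715848-21718074 covered the starts of Hist1h2ai, Hist1h2bl and Hist1h3h and spanned 2227 bp in wild-type cells, of which 2 R31Q peaks, the wider of 1500 bp, covered 87.8%. In R31Q none of the 28 passed the test in either direction, with a median log2 fold change of 0.07. Of all 68 histone genes tested, 2 were lower and 0 higher in R31Q, when 2.55% and 1.62% of all genes tested were called. In Pax5-/- 13 were lower and none higher, with a median of -1.01 against -0.11 over all genes, of which 19.7% were lower and 16.2% higher. Over all 68 histone genes tested, with and without a wide peak, 34 were lower and none higher, so falls were not limited to those at wide peaks.

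Single histone genes varied widely between libraries of a genotype. Hist1h2an was at 275 and 813 TPM in Pax5+/+ and 48.0 and 117 in Pax5-/- (-2.64 ± 0.53, adjusted p = 0.00693), and Hist1h2ak at 559.6 and 675 in Pax5+/+, 149 and 437 in Pax5R31Q/- and 79.0 and 83.6 in Pax5-/- (-2.90 ± 0.72, adjusted p = 0.0169). Transcripts of replication-dependent histone genes lack poly(A) tails, and the RNA was selected by poly(A), so the values hold only the part that was captured. H3f3b, a replacement histone whose transcript has a tail, was at 1097 and 1109.7 TPM in Pax5+/+, 879 and 994 in Pax5R31Q/- and 555 and 745 in Pax5-/- (-0.78 ± 0.15, adjusted p = 0.00661).

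Ribosomal protein genes were rarely under wide peaks. Of 85, 69 had a wild-type peak at the TSS but only Rps19 (1.18%) had a wide one, of 1064 bp, with 1133 and 1139 TPM in Pax5+/+ and 1131 and 1225 in Pax5R31Q/-. Of 16 genes of glucose and energy metabolism, 1 (6.25%) had a wide peak, Nr3c1, at 42.4 and 33.9 TPM in Pax5+/+ and 65.0 and 52.5 in Pax5R31Q/- (0.61 ± 0.19, adjusted p = 0.135). All of these lists were chosen with earlier results of the same data known, so their counts are descriptions.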

How the data were processed

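Peak lists of 2 Pax5 ChIP-seq libraries and TPM tables of 8 RNA-seq libraries were used as deposited, and samples were grouped by the genotype in their labels. Per the study's methods, the authors aligned reads to GRCm38 (mm10) and called peaks with MACS in each library separately against an input sample, with a filter on the caller's p. The deposited peak files give start, end and a score of 0 throughout. The authors computed TPM from uniquely mapping reads on 25579 RefSeq genes. The submitters' processing notes name Bowtie2 2.3.5.1, STAR 2.4.2, SAMtools 1.9, Picard 2.18.27 and MACS.

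Width was end minus start. Peaks met when they shared at least 1 bp. Curated RefSeq starts were used, and 24792 TPM symbols (96.9%) matched the annotation. GC content, CG ratio and motifs were read from the RefSeq genome with pysam 0.24.0 (Python 3.11.15, pandas 2.3.3). Peaks had no test, as each genotype had 1 library. Expression was compared with limma 3.58.1 (R 4.3.3) on log2(TPM + 1), with a variance trend, in 1 fit over the 8 libraries and all 13436 genes with at least 1 TPM in 1 library. The Benjamini-Hochberg adjustment ran over all of these genes, and fold changes are on the log2(TPM + 1) scale, which understates changes of low genes. The labels do not say whether the 2 libraries of a genotype came from separate mice, so p-values measure the spread between libraries. TPM carries no depth, and the number of libraries limits the precision. A fit without 1 library leaves 1 library in its group, so its spread comes from the other genotypes. Counts by the study's thresholds took the fold on TPM + 1 and left out 419 immunoglobulin entries. The scripts were tested on simulated data.

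Genes named were those nearest to the 12 widest peaks, to unmet peaks and to the 3 peaks on each side of the width limit, the 8 largest falls and rises per comparison among genes called, and list members with a wide peak; Lef1, Adgrl2 and other examples came from the values. The members and lists were chosen with earlier results of these data known. Alternatives for width, overlap, TSS window, motif window, pseudocount, filter, libraries in the fit, scaling, variance trend and thresholds were tried, and GENCODE vM21 starts were added after seeing the data. A few genes that the naming rule would give are not reported here.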

Additional observations from a re-analysis of the deposited data

How the results depend on the processing

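A minimum of 800 bp gave 2118 wide peaks, of which 97.5% were met by an R31Q peak and 81.7% were at a promoter, and a minimum of 1200 bp gave 372. With the midpoint required inside an R31Q peak, 96.7% were met. A TSS within 0.2 kb was found for 84.1%, and a GENCODE start within 1 kb, added after seeing the data, for 91.4%. SP boxes numbered 5.55 per kb in the central 300 bp and 4.67 per kb over whole peaks. At minima of 800 and 1200 bp, genes lower in R31Q numbered 46 and 9, genes higher 16 and 3, genes lower in Pax5-/- 550 and 147, and genes higher 175 and 16. The study's thresholds, with the fold taken on TPM + 1, left 1 and 0 in R31Q and 36 and 6 in Pax5-/-. With only the compared genotypes fitted, 10 genes were higher in R31Q, and 135 were lower and 35 higher in Pax5-/-. Leaving out 1 library at a time gave 2 to 27 lower and 1 to 7 higher genes in R31Q, and 176 to 444 lower and 52 to 73 higher in Pax5-/-. Of the 17 lower and 6 higher genes in R31Q, 2 and 1 were kept without Pax5R31Q/- library 1, 3 and 1 without library 2, 12 and 3 without Pax5+/+ library 1 and 7 and 2 without its library 2. Of genes nearest to wide peaks away from starts, alternatives added after seeing the data left 3 lower in R31Q with no filter and 2 with only the compared genotypes fitted, 1 higher in R31Q with a pseudocount of 0.1 and 5 higher in Pax5-/- with only the compared genotypes, and leaving out 1 library gave 0 to 3 lower and 1 to 2 higher in R31Q and 18 to 33 lower and 8 to 11 higher in Pax5-/-. The cause of these changes was not tested. The other 120 values computed under alternatives moved by less than their spread or, for counts, stayed within 1.5 times. Among them, the median ratio of widths was 1 when only the bases of the wide peak that R31Q peaks covered were counted, a ratio that cannot exceed 1, and the count in Pax5+/- was 0 throughout. No paired analysis was possible because the labels give no replicate numbers that the genotypes share. Peak height and ChIP depth are not in the files, so narrow and weak peaks cannot be told apart.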
